A study of Rattus norvegicus with 4 samples.

Results

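The genes described here encode integrins, laminins and basement membrane proteins of rat cartilage. They were chosen by symbol from the deposited gene table, as every row for an integrin alpha or beta subunit, a laminin chain, a nidogen, dystroglycan (Dag1), perlecan (Hspg2) or agrin (Agrn). The rule gave 31 of the table's 13554 genes: 12 integrin alpha subunits, 8 integrin beta subunits, 8 laminin chains, Nid2, Dag1 and Agrn. Another 11 rat genes that the rule names, Hspg2, Itga2, Itga2b, Itga3, Itga9, Itgav, Itgax, Lama2, Lama3, Lamb1 and Nid1, were not analysed here. RNA was sequenced from articular cartilage, which covers bone ends in joints, and from xiphoid cartilage, found at the lower end of the sternum. There were 2 libraries of each from Sprague-Dawley rats aged 8 to 10 weeks, with no treatment or genetic change named. The labels give neither the joint, the sex nor the animals or pools behind a library, so p-values measure only how these samples spread, and that spread may be technical.

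Integrins are cell surface receptors made of an alpha and a beta subunit, and the pair decides which matrix protein a cell can hold. Laminins are trimers of an alpha, a beta and a gamma chain that polymerise on cell surfaces and, with type IV collagen, nidogens, perlecan and agrin, build basement membranes. Chondrocytes sit in a thin pericellular matrix that contains several of these proteins without forming a true basement membrane, whereas muscle fibres, fat cells, Schwann cells and vessels are wrapped in one.

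Levels are normalised read counts, in CPM (each count divided by the size of its library), scaled between libraries by TMM, and are not corrected for transcript length, so they are compared between tissues and never between genes. Library totals ranged from 7351005 to 8434821 counts. Where a gene had no count in a tissue, its 2 libraries together still allow up to 3 counts, which equals 0.186 CPM for the articular and 0.190 CPM for the xiphoid pair. These limits and the interval of a count ratio reflect counting error alone. The chondrocyte marker list, led by Col2a1 and Acan, took 12.6% and 10.7% of the counts in articular libraries against 3.38% and 3.12% in xiphoid libraries, and all 10 of its genes had counts in both tissues. Of these 10, 6 were higher in articular cartilage, 2 (Cnmd and Comp) were higher in xiphoid cartilage and 2 (Sox9 and Matn3) did not pass. Without Col2a1 the list took 2.33% and 2.11% of the articular counts against 1.73% and 1.65% of the xiphoid counts. Markers of muscle fibres and fat were higher in the xiphoid libraries, and markers of blood-forming marrow, osteoclasts and osteoblasts in the articular libraries, as the plot of marker lists shows. In bulk tissue, fewer cells of a type and less RNA per cell cannot be told apart.

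**Figure D1:**
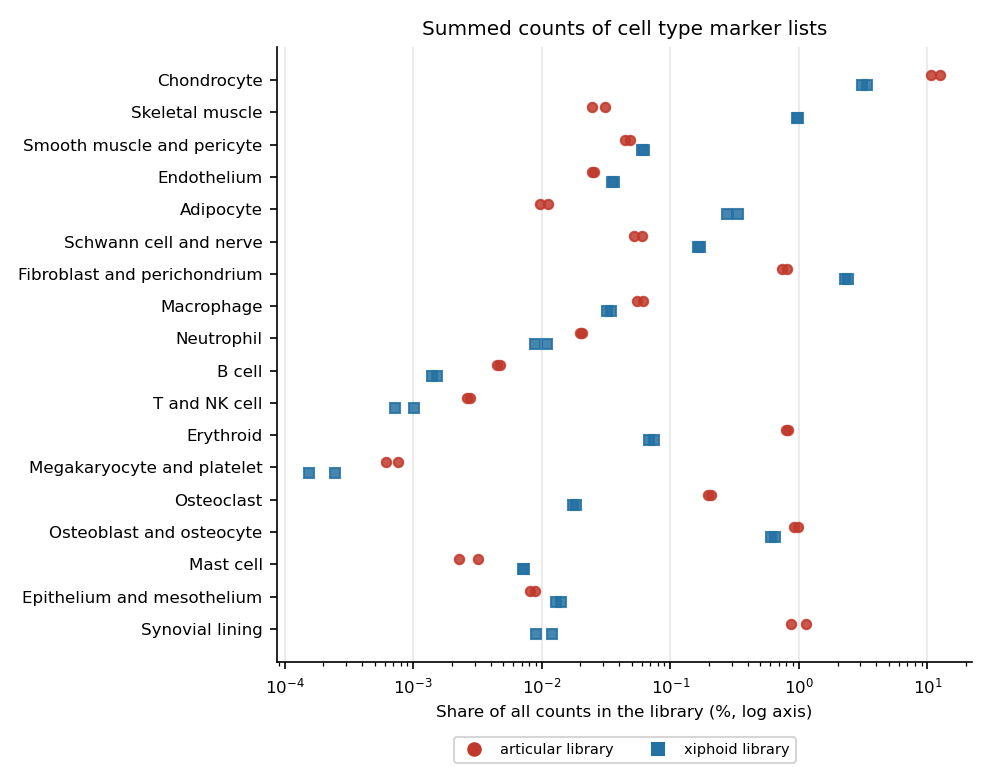
Share of all counts in each library, in percent on a log axis, taken by each list of cell type markers, with articular libraries as circles and xiphoid libraries as squares. Skeletal muscle markers were at 0.0312% and 0.0248% in articular libraries, far left of the xiphoid libraries at 0.977% and 0.968%, while osteoclast markers were at 0.197% and 0.207% in articular libraries and 0.0185% and 0.0175% in xiphoid libraries.

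The integrins were divided between the cartilages, while most laminin chains did not pass the test and were fitted within 1.5-fold. Articular cartilage carried more transcript of Itga6, Itga5 and Itgb3, and of the leukocyte integrins Itgal, Itga4, Itgb2, Itgam and Itgb7. Xiphoid cartilage carried more Itga10, Itga11, Itga7, Itga8, Itgb4 and Itgb5, and more Lamb3, Nid2, Dag1 and Agrn. Low counts left 4 of the 31 genes untested, namely Itgad, Itgb6, Itgb8 and Lama1. Of the 27 tested, 10 passed toward articular cartilage, 10 passed toward xiphoid cartilage and 7 did not pass (edgeR quasi-likelihood test, Benjamini-Hochberg adjusted p under 0.05 over all genes tested). The background was high: 49.5% of the 11202 genes tested were called, 25% as higher in articular and 24.5% as higher in xiphoid cartilage, against 74.1% of the 27. By group, 15 of 17 integrins, 2 of 7 laminin chains, and Nid2, Dag1 and Agrn passed. The libraries of the tissues did not overlap for 24 of the 27, against 74.9% of all genes tested. The median log2 fold change, articular over xiphoid, was 0.22 for the 27 and -0.02 for all genes tested.

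**Figure D2:**
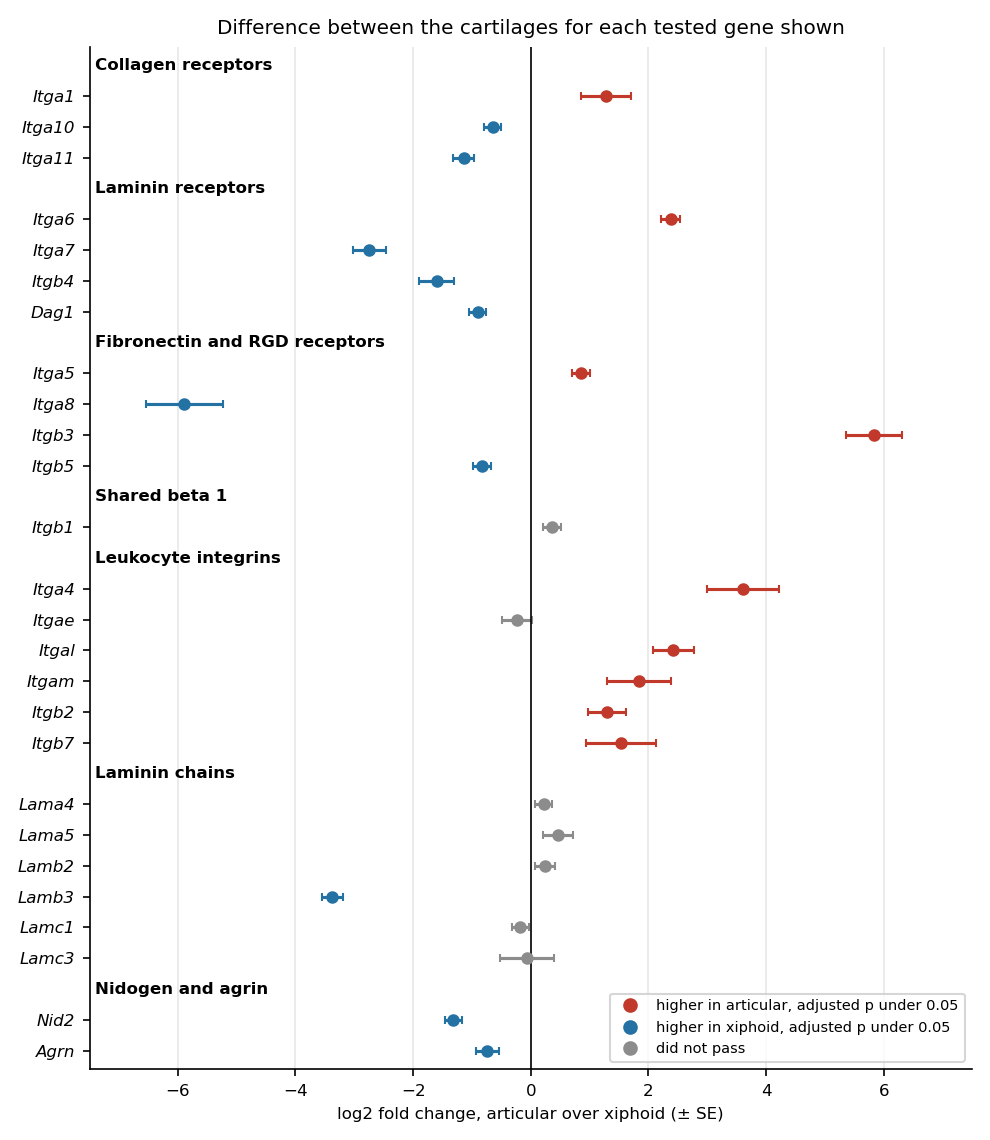
Fitted log2 fold change, articular over xiphoid, of each tested gene that the text gives, with its standard error, grouped by role. Red points were higher in articular cartilage, blue points were higher in xiphoid cartilage and grey points did not pass. Integrins reach from -5.89 for Itga8 to 5.84 for Itgb3, where counts were few in the lower tissue, whereas most laminin chains lie near 0.

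Promoter sequence was at hand in RefSeq (build GRCr8) for 20 of the 31 genes, as the window from 250 bases before to 50 bases after the annotated gene start, which these libraries do not test. Shown 5′ to 3′ are 5 windows for genes on which the comparison turns: the most xiphoid-weighted laminin chain (Lamb3) and integrin (Itga8), the articular-weighted Itga4, and the collagen receptors Itga10 and Itga11. The windows lie at chr13:107362303-107362602 (plus strand), chr17:80410584-80410883 (minus strand), chr3:84569765-84570064 (plus strand), chr2:186871461-186871760 (plus strand) and chr8:72041182-72041481 (plus strand). Capitals mark any match, on either strand, to the motifs spelled out after the sequences, and no matches overlapped in these 5 windows.
Lamb3: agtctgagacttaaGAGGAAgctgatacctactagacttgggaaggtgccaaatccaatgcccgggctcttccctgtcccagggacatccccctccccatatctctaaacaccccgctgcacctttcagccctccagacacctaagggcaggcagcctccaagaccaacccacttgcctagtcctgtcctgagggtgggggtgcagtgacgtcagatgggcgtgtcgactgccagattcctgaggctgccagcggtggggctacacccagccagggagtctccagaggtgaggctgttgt
Itga8: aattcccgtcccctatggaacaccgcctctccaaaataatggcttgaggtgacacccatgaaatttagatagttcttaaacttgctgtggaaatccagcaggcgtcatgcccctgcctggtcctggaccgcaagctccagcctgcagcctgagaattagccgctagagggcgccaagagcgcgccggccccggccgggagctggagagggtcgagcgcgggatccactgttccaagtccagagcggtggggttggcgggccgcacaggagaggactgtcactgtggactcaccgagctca
Itga4: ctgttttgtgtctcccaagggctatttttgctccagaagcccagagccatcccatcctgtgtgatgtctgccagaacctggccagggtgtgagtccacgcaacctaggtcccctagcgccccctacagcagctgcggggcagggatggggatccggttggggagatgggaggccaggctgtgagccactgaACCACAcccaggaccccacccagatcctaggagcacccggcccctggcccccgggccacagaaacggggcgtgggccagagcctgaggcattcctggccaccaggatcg
Itga10: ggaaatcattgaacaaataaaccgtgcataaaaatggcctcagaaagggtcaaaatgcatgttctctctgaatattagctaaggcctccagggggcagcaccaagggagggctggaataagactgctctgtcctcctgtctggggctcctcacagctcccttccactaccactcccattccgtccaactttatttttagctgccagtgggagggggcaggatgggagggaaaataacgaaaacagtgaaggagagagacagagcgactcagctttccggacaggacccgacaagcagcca
Itga11: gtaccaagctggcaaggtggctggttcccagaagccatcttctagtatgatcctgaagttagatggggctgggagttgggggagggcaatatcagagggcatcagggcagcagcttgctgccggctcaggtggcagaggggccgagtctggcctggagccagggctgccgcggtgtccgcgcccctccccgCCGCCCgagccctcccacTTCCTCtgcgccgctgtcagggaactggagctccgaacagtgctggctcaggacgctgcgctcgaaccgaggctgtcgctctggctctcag

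A match to such short letters is a description and not a site, and each motif was searched on both strands. The PU.1 core, GAGGAA, was in 9 of the 20 windows, those of Lamb3 and Itga11 among them, and in 27.6% of the 33469 promoters searched. The RUNX core, spelled TGTGGT, was in 4 windows, those of Itga4, Itgae, Itgam and Itgb7, which is 20% of the 20 against 17.3% of all promoters. A GC box, GGGCGG, was in 9 of the 20 windows, that of Itga11 among them, and in 33.1% of all promoters. The SOX core with the letters ACAAAG was in 3 windows and in 18.8% of all promoters, and the TATA box TATAAA was in 2 windows and in 14.2% of all. A CArG box, CCWWWWWWGG with W for A or T, was in 1 window, against 1.64% of all promoters. The AP-1 letters TGANTCA, with N for any base, were in 0 windows, against 7.33% of all. The windows of Itga8 and Itga10 held none of these letters.

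Itga10 and Itga11, receptors for fibrillar collagen, stood on the side opposite to type II collagen. Itga10 (Entrez gene 310683), which pairs with Itgb1 as the main type II collagen receptor of chondrocytes, was at 118 and 105 CPM in articular libraries against 174 and 176 CPM in xiphoid libraries. Both xiphoid libraries lay above both articular ones, a 1.57-fold difference (log2 fold change -0.65 with an SE of 0.15, adjusted p = 0.00284). Itga11, a receptor for fibrillar collagen of mesenchymal cells, was at 18.4 and 17.6 CPM in articular against 39.0 and 40.4 CPM in xiphoid libraries, 2.2-fold higher in xiphoid cartilage (log2 fold change -1.14 with an SE of 0.18, adjusted p = 0.000226). Col2a1, by contrast, was at 103390 and 85673 CPM in articular libraries and 16347 and 14862 CPM in xiphoid libraries (adjusted p = 1.58e-07). Not all fibrillar collagens lay with Col2a1. Of 11 tested collagens listed as integrin ligands, 4 passed toward articular and 3 toward xiphoid cartilage, Col3a1 among the latter. Col1a1 did not pass. Itga1, a collagen receptor best known for binding type IV collagen, went the other way from Itga10 and Itga11, at 11.7 and 7.58 CPM in articular against 5.88 and 1.92 CPM in xiphoid libraries. Its call (log2 fold change 1.28 with an SE of 0.43, adjusted p = 0.0283) was lost without articular replicate 1 (0.93, adjusted p = 0.058) or xiphoid replicate 2 (0.73, adjusted p = 0.136), and the value was 2.34 without xiphoid replicate 1. The annotated span of Itga1 also holds Pelo, so reads of the pair cannot be told apart with certainty.

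Among collagen receptors that are not integrins, 2 of 4 tested genes were higher in xiphoid cartilage and 0 in articular cartilage, a called share of 50% that is close to the 49.5% of all genes tested. Mrc2, an endocytic receptor that takes up collagen, was at 166 and 121 CPM in articular against 394 and 313 CPM in xiphoid libraries (adjusted p = 9.41e-05). Ddr1, a collagen-activated receptor kinase, was higher in xiphoid cartilage by 1.67-fold (adjusted p = 0.00977). Its relative Ddr2 had a log2 fold change of 0.19 (adjusted p = 0.465) and the hyaluronan and collagen receptor Cd44 one of 0.27 (adjusted p = 0.285).

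**Figure D3:**
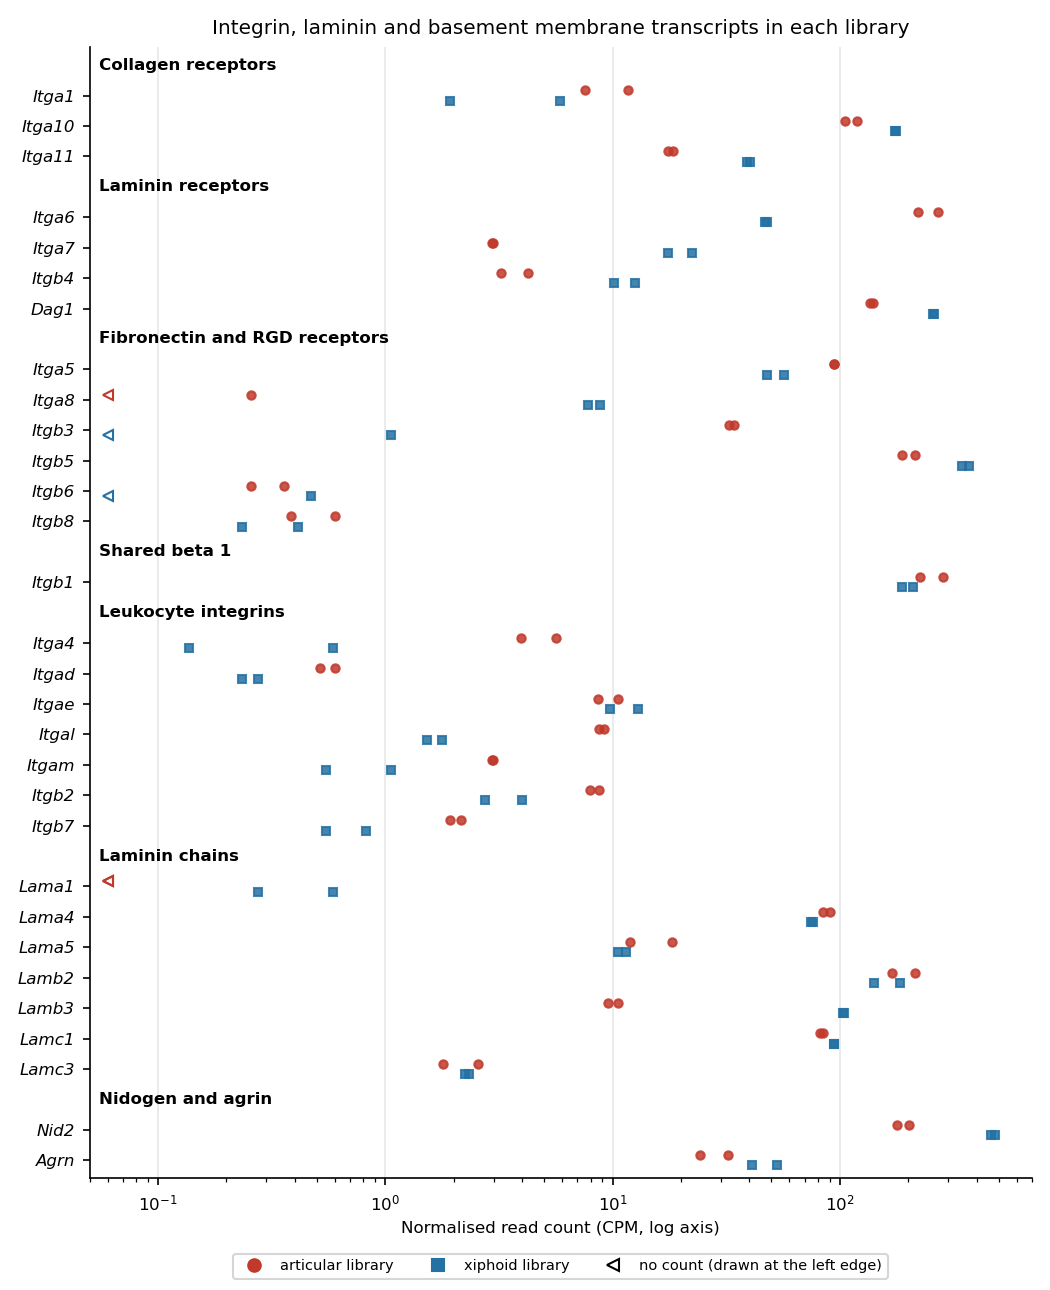
Normalised read count in CPM, on a log axis, of each gene of the rule that the text gives, in each library, with articular libraries as red circles above xiphoid libraries as blue squares. An open triangle at the left edge is a library with no count. Itga6 and Itgb3 lie to the right in articular libraries, and Lamb3, Itga7, Itga8 and Nid2 lie to the right in xiphoid libraries, with no overlap of libraries.

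The laminin receptors changed places between the cartilages. Itga6 (Entrez gene 114517), a laminin-binding subunit that pairs with Itgb1 or Itgb4, was at 221 and 270.0 CPM in articular libraries and 47.6 and 46.9 CPM in xiphoid libraries. Both articular libraries were far above both xiphoid ones, a 5.19-fold difference (log2 fold change 2.38 with an SE of 0.16, adjusted p = 1.92e-07). Itga7 (Entrez gene 81008), the laminin-binding subunit known from skeletal muscle fibres, was at 2.99 and 2.95 CPM in articular against 22.5 and 17.5 CPM in xiphoid libraries. It was 6.71-fold higher in xiphoid cartilage (log2 fold change -2.75 with an SE of 0.28, adjusted p = 6.34e-06). Itgb4, which joins Itga6 in the hemidesmosomes of epithelia, did not move with Itga6. Its level was 3.23 and 4.24 CPM in articular against 10.1 and 12.6 CPM in xiphoid libraries, 3.03-fold higher in xiphoid cartilage (log2 fold change -1.60 with an SE of 0.30, adjusted p = 0.000896). Dag1 (Entrez gene 114489), which encodes dystroglycan, the laminin and agrin receptor of muscle and many other cells, was at 140.0 and 135 CPM in articular and 256 and 259 CPM in xiphoid libraries (log2 fold change -0.90 with an SE of 0.14, adjusted p = 0.0002).

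Markers of cells that carry these receptors differed in the same libraries. Of 16 tested skeletal muscle markers, 15 were higher in xiphoid cartilage, at 0.0312% and 0.0248% of counts in articular against 0.977% and 0.968% in xiphoid libraries, and Myh2, Myh7, Myot and Pvalb had no count in articular libraries. The part of muscle in the Itga7 and Dag1 values was not tested. The annotated span of Itga7 overlaps that of Mettl7b, another gene of the table. Schwann cell and nerve markers, of cells that also use Itgb4, had 3 of 8 tested genes higher in xiphoid and 1 in articular cartilage. Their called share of 50% is close to the 49.5% of all genes tested. The list took 0.0523% and 0.0605% of counts in articular against 0.165% and 0.169% in xiphoid libraries. S100b, which chondrocytes also express, carried that gap, and without it the shares were 0.0175% and 0.0204% in articular against 0.0185% and 0.0194% in xiphoid libraries. Sox10, a transcription factor of these cells, had no count in xiphoid libraries. Their part in the Itgb4 value was not tested.

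Receptors for fibronectin and for other ligands with the Arg-Gly-Asp (RGD) sequence parted as well. Itga5, which pairs with Itgb1 as the classical fibronectin receptor, was at 94.5 and 93.9 CPM in articular libraries and 47.6 and 56.9 CPM in xiphoid libraries. The articular level was 1.80-fold higher (log2 fold change 0.85 with an SE of 0.16, adjusted p = 0.000759). Itgb5, a vitronectin receptor subunit that pairs with Itgav, was 1.78-fold higher in xiphoid cartilage, at 188 and 214 CPM in articular against 344 and 371 CPM in xiphoid libraries (adjusted p = 0.000527). In both cases the libraries of the tissues stood apart. Itgb6 and Itgb8, partners of Itgav that help release TGF-beta from its latent form, were untested. Itgb6 had 3 and 2 counts in articular and 4 and 0 counts in xiphoid libraries, and Itgb8 had 5 and 3 counts in articular and 2 and 3 counts in xiphoid libraries.

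Itgb3 (Entrez gene 29302), the subunit of the osteoclast vitronectin receptor and the platelet fibrinogen receptor, was at 34.1 and 32.5 CPM in articular libraries, against 1.06 CPM in one xiphoid library (9 counts) and no count in the other. The fitted log2 fold change was 5.84 (SE 0.47, adjusted p = 1.63e-06), against 6.91 with limma-voom and 4.97 without xiphoid replicate 2. Without xiphoid replicate 1 the remaining xiphoid library had no count. Against 3 counts in that library, Itgb3 was at least 81.0-fold higher in the articular libraries. This limit holds for that xiphoid library alone, as the fit to all libraries gave 57.3-fold. Osteoclast markers were higher in articular cartilage for 7 of 7 tested genes, at 0.197% and 0.207% of counts in articular against 0.0185% and 0.0175% in xiphoid libraries, where Oscar, Calcr and Atp6v0d2 had no count. Of the megakaryocyte and platelet list 1 of 6 genes could be tested, Nfe2, which was higher in articular cartilage (adjusted p = 0.00198). This list took 7.62e-04% and 6.17e-04% of counts in articular and 1.54e-04% and 2.45e-04% in xiphoid libraries. Without Nfe2 the shares were 2.025e-04% and 4.11e-04% in articular against 1.186e-04% and 2.041e-04% in xiphoid libraries, so the tissues overlapped. Gp1ba had 4 counts and 1 count in articular libraries and none in xiphoid libraries. The part of these cells in the Itgb3 value was not tested.

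Itga8 (Entrez gene 364786), which pairs with Itgb1 and is known from smooth muscle and mesenchyme, was nearly absent from the articular libraries. It had 0 and 2 counts in articular libraries against 66 and 64 in xiphoid libraries, or 7.76 and 8.77 CPM there. The ratio of xiphoid to articular counts was 66.4, with an exact conditional binomial 95% interval of 18.0 to 554 (edgeR adjusted p = 1.34e-05). The fitted log2 fold change of -5.89 was -4.92 without articular replicate 1, and without articular replicate 2, where no count remained, Itga8 was at least 23.0-fold higher in xiphoid cartilage. Smooth muscle and pericyte markers had 2 of 13 tested genes higher in articular and 6 higher in xiphoid cartilage. Their called share was 61.5% against 49.5% of all genes tested. They took 0.0486% and 0.0445% of counts in articular against 0.0621% and 0.0599% in xiphoid libraries, and none was at 0 in either tissue. Without Cspg4, which did not pass, the shares were 0.02386% and 0.02329% in articular against 0.03923% and 0.04025% in xiphoid libraries. The part of smooth muscle cells and pericytes in the Itga8 value was not tested.

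Itgb1, the beta subunit shared by the collagen, laminin and fibronectin receptors above, did not pass. It was at 226 and 284 CPM in articular and 188 and 209 CPM in xiphoid libraries (log2 fold change 0.36 with an SE of 0.16, adjusted p = 0.0739). The libraries did not overlap, and the adjusted p was 0.00486 without articular replicate 1 and 0.378 without articular replicate 2.

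Among integrins known from leukocytes, Itgal, Itga4, Itgb2, Itgam and Itgb7 were higher in articular cartilage and Itgae did not pass, a grouping by known role made after the values were seen. Itgal, which with Itgb2 forms the LFA-1 receptor for ICAMs, was at 8.73 and 9.12 CPM in articular against 1.53 and 1.78 CPM in xiphoid libraries (log2 fold change 2.43 with an SE of 0.35, adjusted p = 0.00012). Itga4, which pairs with Itgb1 or Itgb7 to bind Vcam1 and fibronectin, was at 3.95 and 5.65 CPM in articular against 0.588 and 0.137 CPM in xiphoid libraries. These xiphoid values rest on 5 counts and 1 count, and the log2 fold change of 3.61 (SE 0.61, adjusted p = 0.000403) became 4.98 when xiphoid replicate 1 was left out and 3.0 when replicate 2 was. Itgb2, the beta subunit common to several leukocyte receptors, was 2.45-fold higher in articular cartilage, at 8.73 and 7.96 CPM against 4.0 and 2.74 CPM in xiphoid libraries (adjusted p = 0.00569). Of the ligands of these receptors, Icam1 (log2 fold change -0.73, adjusted p = 0.0107) and Icam2 (-1.41, adjusted p = 0.0032) were higher in xiphoid cartilage. Vcam1 did not pass (0.01, adjusted p = 0.979).

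The calls of Itgam and Itgb7 depended on the test and on single libraries. Itgam, the Mac-1 subunit of myeloid cells, was at 2.99 and 2.95 CPM in articular against 1.06 and 0.548 CPM in xiphoid libraries (log2 fold change 1.84, adjusted p = 0.0136), and missed the threshold with DESeq2 (adjusted p = 0.0524) and without xiphoid replicate 2 (adjusted p = 0.111). Itgb7, the partner of Itga4 and Itgae in lymphocytes, was at 2.15 and 1.93 CPM in articular against 0.823 and 0.548 CPM in xiphoid libraries (adjusted p = 0.0479). Its call was lost with DESeq2 (adjusted p = 0.172), with no low-count filter (0.0776) and without any one of the 4 libraries (0.112 to 0.267). Itgae, the E-cadherin-binding subunit of resident lymphocytes, did not pass, at 10.5 and 8.61 CPM in articular against 9.76 and 12.9 CPM in xiphoid libraries, where the tissues overlapped. Itgad, another partner of Itgb2, had 5 and 4 counts in articular and 2 and 2 counts in xiphoid libraries and was untested. The annotated spans of Itga4, Itgae and Itgb7 overlap those of the protein-coding genes Cerkl, Haspin and Znf740, which were not analysed here.

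Markers of blood cells differed between the same libraries, and their part in these values was not tested. Neutrophil markers had 6 of 8 tested genes higher in articular and 1, Lcn2, higher in xiphoid cartilage, with 0.0198% and 0.0204% of counts in articular against 0.00889% and 0.011% in xiphoid libraries, and 0.0183% and 0.0187% against 0.00107% and 0.00127% without Lcn2. In the xiphoid libraries Elane, Camp, Ngp, Cebpe and Mmp8 had no count. B cell markers were higher in articular cartilage for 6 of 7 tested genes, at 0.00448% and 0.00471% of counts against 0.00141% and 0.00154% in xiphoid libraries, where Cd79b, Pax5, Vpreb1 and Ms4a1 had no count. Ebf1, which did not pass, made up most of that xiphoid share. Without it the B cell shares were 0.00388% and 0.00351% in articular against 1.78e-04% and 1.09e-04% in xiphoid libraries. T and NK cell markers had 2 of 3 tested genes higher in articular cartilage, at 0.00274% and 0.00263% of counts against 7.23e-04% and 0.00102% in xiphoid libraries, where 6 of 10 (Cd3e, Cd2, Cd8a, Nkg7, Gzmb and Prf1) had no count. Without Cd4, the gene of this list with the most counts, the shares were 0.00117% and 0.00141% in articular against 2.13e-04% and 2.72e-04% in xiphoid libraries. Macrophage markers were split, with 4 of 12 higher in articular and 2 higher in xiphoid cartilage, at 0.0548% and 0.0618% of counts in articular against 0.0322% and 0.0348% in xiphoid libraries and with none at 0. Their called share of 50% is close to the 49.5% of all genes tested. Without Lyz2 the macrophage shares were 0.0204% and 0.0207% in articular against 0.0171% and 0.0178% in xiphoid libraries. Erythroid markers, led by Hbb and Hba1, were higher in articular cartilage for 10 of 10 tested genes, at 0.800% and 0.819% of counts against 0.0684% and 0.075% in xiphoid libraries. Mast cell markers had 4 of 5 tested genes higher in xiphoid cartilage, at 0.00229% and 0.00319% of counts in articular against 0.00726% and 0.00717% in xiphoid libraries, with Mcpt1 at no count in xiphoid cartilage.

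Among the laminin chains, Lamb3 stood out on the xiphoid side. Its protein is known as a partner of that of Lama3 in the laminin that anchors epithelia. Lamb3 (Entrez gene 305078) was at 10.5 and 9.50 CPM in articular libraries and 103 and 105 CPM in xiphoid libraries, 10.4-fold higher in xiphoid cartilage (log2 fold change -3.37 with an SE of 0.18, adjusted p = 1.81e-08). The libraries of the tissues did not overlap, and the direction and call held under each alternative and without each library. Epithelial and mesothelial markers were split, with 3 of 5 tested genes higher in articular and 2 higher in xiphoid cartilage, at 0.00884% and 0.00805% of counts in articular against 0.0142% and 0.013% in xiphoid libraries. Without the keratin gene Krt8 these shares were 0.0051% and 0.00477% in articular against 0.00351% and 0.00329% in xiphoid libraries. The epidermal keratin Krt14 had 2 and 3 counts in articular and 1 and 1 in xiphoid libraries, Krt5 had none in articular and 1 and 4 in xiphoid libraries, and Msln had none in articular and 23 and 9 in xiphoid libraries. Markers of the synovial lining, another cell layer of joints, had 2 of 5 tested genes higher in articular and 1 higher in xiphoid cartilage, and took 0.870% and 1.14% of counts in articular against 0.00909% and 0.0121% in xiphoid libraries, mostly as Prg4, without which they took 0.00129% and 0.0017% in articular against 0.00313% and 0.0034% in xiphoid libraries. The part of these cells in the Lamb3 value was not tested.

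Of the 7 tested laminin chains, 5 did not pass, with fitted differences below 1.5-fold. Lama4, an alpha chain of vessels, fat and muscle, was at 90.4 and 84.5 CPM in articular and 74.3 and 76.3 CPM in xiphoid libraries (adjusted p = 0.248). Lamc1, the gamma chain found in most laminins, was at 84.3 and 81.9 CPM in articular and 93.7 and 94.3 CPM in xiphoid libraries (adjusted p = 0.339). The standard error was 0.15 on the log2 scale for each of this pair, and neither had overlapping libraries. Lamb2, a beta chain of muscle and vessel laminins, was at 214 and 170.2 CPM in articular and 183 and 141 CPM in xiphoid libraries, with overlap (adjusted p = 0.259, and 0.0396 without articular replicate 2). Lama5, a widespread alpha chain, was at 18.3 and 11.9 CPM in articular and 11.4 and 10.5 CPM in xiphoid libraries (adjusted p = 0.155, and 0.0176 without articular replicate 2). Lamc3 overlapped between tissues, with 15 and 20 counts in articular and 19 and 17 in xiphoid libraries (adjusted p = 0.919). Lama1, the alpha chain of the early embryo, was untested, with no count in articular and 5 and 2 in xiphoid libraries. Endothelial markers, of the vessels that such laminins wrap, had 1 of 12 tested genes higher in articular and 6 higher in xiphoid cartilage, at 0.0253% and 0.0245% of counts in articular against 0.0363% and 0.0353% in xiphoid libraries, with none at 0. Their called share was 58.3% against 49.5% of all genes tested.

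Nid2 and Agrn, which help to join the parts of a basement membrane, were higher in xiphoid cartilage. Nid2 (Entrez gene 302248), a nidogen that ties laminin to type IV collagen, was at 178 and 201 CPM in articular and 481 and 463 CPM in xiphoid libraries, 2.49-fold higher in xiphoid cartilage (log2 fold change -1.31 with an SE of 0.15, adjusted p = 1.39e-05). Agrn, a heparan sulfate proteoglycan that binds laminin and dystroglycan, was at 32.1 and 24.3 CPM in articular against 52.9 and 41.2 CPM in xiphoid libraries (log2 fold change -0.74 with an SE of 0.20, adjusted p = 0.00799). Without xiphoid replicate 1 the Agrn call was lost (-0.54, adjusted p = 0.115).

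Basement membrane collagens, a listed group outside the 31, had 3 of 5 tested genes higher in xiphoid cartilage and 0 in articular cartilage, a called share of 60% against 49.5% of all genes tested, with a median log2 fold change of -1.09. Col4a1, a chain of the type IV network, was at 120 and 125 CPM in articular and 325 and 308 CPM in xiphoid libraries (adjusted p = 8e-06). Col15a1, found at the outer face of muscle and vessel basement membranes, was higher in xiphoid cartilage by 1.98-fold (adjusted p = 0.000313). Col17a1, a transmembrane collagen of hemidesmosomes, was at 0.718 and 0.128 CPM in articular against 6.47 and 4.11 CPM in xiphoid libraries (log2 fold change -3.57, adjusted p = 0.000455). With 6 counts and 1 count in articular libraries, that value was -5.21 without articular replicate 1 and -2.86 without articular replicate 2. Col18a1 did not pass (adjusted p = 0.101, and 0.0288 without articular replicate 1), nor did Col7a1, the collagen of anchoring fibrils (adjusted p = 0.27).

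Of 16 tested genes in the list of other basement membrane and laminin-associated proteins, 1 was higher in articular and 10 in xiphoid cartilage. Their called share was 68.8% against 49.5% of all genes tested, with a median log2 fold change of -1.72. The xiphoid side included Tinagl1, a matricellular protein that binds laminin and integrins, at 7.42 and 4.88 CPM in articular against 51.0 and 43.6 CPM in xiphoid libraries (adjusted p = 8.12e-07). Pxdn, the peroxidase that cross-links type IV collagen, was higher in xiphoid cartilage by 3.59-fold (adjusted p = 2.94e-06), and Ecm1, an extracellular matrix glycoprotein, 6.79-fold (adjusted p = 1.35e-07). Thbs4, a thrombospondin that binds integrins and laminin, was at 32.7 and 34.4 CPM in articular against 369 and 338 CPM in xiphoid libraries (adjusted p = 6.81e-09). Bcam, an immunoglobulin-family receptor for laminin alpha 5 chains, was at 2.80 ± 1.96 CPM in articular against 27.3 ± 3.32 CPM in xiphoid cartilage (SD, n = 2 each). Its log2 fold change of -3.26 (adjusted p = 1.02e-05) was -4.26 without articular replicate 1. On the articular side stood Hmcn1, a very large hemicentin of cell junctions, at 9.84 ± 2.25 CPM in articular against 2.36 ± 0.819 CPM in xiphoid cartilage (SD, n = 2 each, adjusted p = 0.000539). Adipocyte markers, of cells wrapped in basement membrane, were higher in xiphoid cartilage for 9 of 9 tested genes, at 0.0111% and 0.00976% of counts in articular against 0.336% and 0.275% in xiphoid libraries. Lep had no count in articular libraries, and the part of fat and muscle cells in these basement membrane values was not tested.

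**Figure D4:**
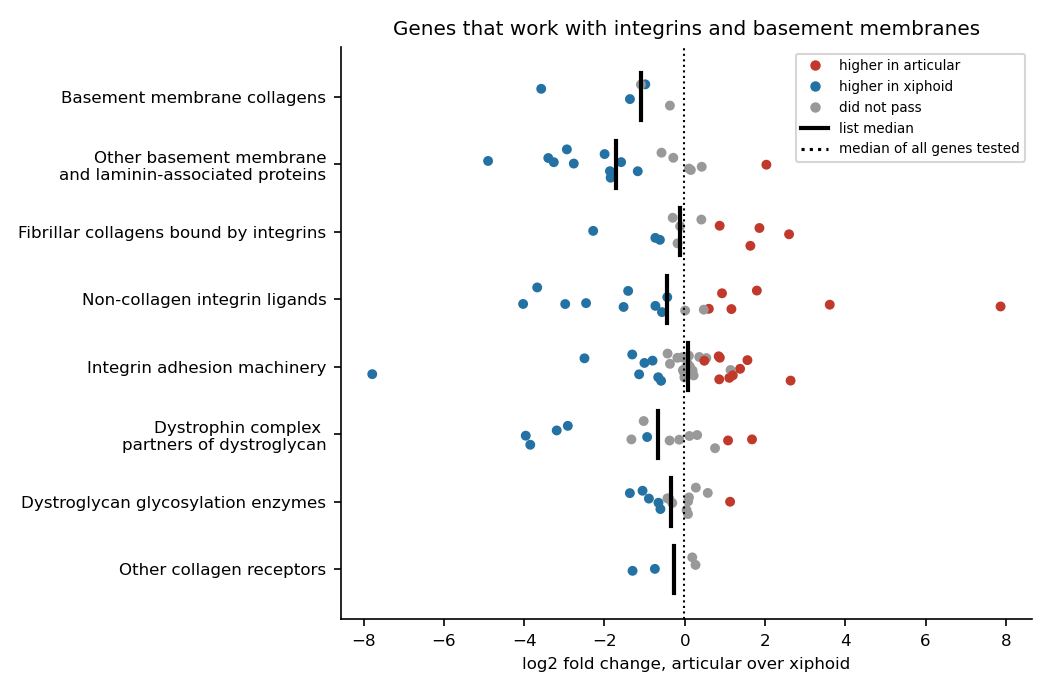
Fitted log2 fold change, articular over xiphoid, of every tested gene in the 8 listed groups of partner genes, coloured by call, with list medians as black bars and the median of all genes tested as a dotted line. The basement membrane lists sit left of that line with medians of -1.09 and -1.72. The leftmost point is Itgb1bp2, which had no articular count, so its fitted place is no bound.

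Ligands of the integrins were divided, with 6 of 17 tested non-collagen ligands higher in articular and 9 higher in xiphoid cartilage, a called share of 88.2% against 49.5% of all genes tested. Spp1 (osteopontin), an RGD ligand of integrins that contain Itgb3, was at 3780 and 4650 CPM in articular and 337 and 352 CPM in xiphoid libraries (adjusted p = 1.06e-08). Ibsp, the RGD-bearing bone sialoprotein, was at 2448 and 1407 CPM in articular against 9.41 and 6.99 CPM in xiphoid libraries (adjusted p = 3.22e-08). Both stood on the same side as Itgb3, together with Fn1, the ligand of Itga5, at 11319 ± 719.7 CPM in articular against 5946 ± 94.5 CPM in xiphoid cartilage (SD, n = 2 each, adjusted p = 0.00034). Osteoblast and osteocyte markers, whose list also holds Ibsp, were higher in articular cartilage for 9 of 10 tested genes. They took 0.983% and 0.916% of counts in articular against 0.605% and 0.649% in xiphoid libraries, where Phex and Sost had no count. Col1a1, which did not pass, made up almost all of the xiphoid share, and without it the list took 0.433% and 0.318% of counts in articular against 0.00396% and 0.00424% in xiphoid libraries. The part of bone cells in the ligand values was not tested.

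On the xiphoid side were Postn (periostin), at 10.6 and 9.76 CPM in articular against 181 and 152 CPM in xiphoid libraries (adjusted p = 6.36e-09), and the microfibril protein Fbn1, 5.49-fold higher in xiphoid cartilage (adjusted p = 5.91e-08). Vtn (vitronectin), the ligand of integrins with Itgb3 and Itgb5, was at 0.363 ± 0.332 CPM in articular against 4.91 ± 0.545 CPM in xiphoid cartilage (SD, n = 2 each). Its log2 fold change of -3.67 (adjusted p = 0.000302) was -5.09 without articular replicate 1 and -3.01 without articular replicate 2. Cdh1 (E-cadherin), the ligand of Itgae, was at 2.38 ± 0.995 CPM in articular against 18.7 ± 2.38 CPM in xiphoid cartilage (SD, n = 2 each, adjusted p = 1.05e-05). Fibroblast and perichondrium markers, of cells that secrete such ligands, had 2 of 12 tested genes higher in articular and 6 higher in xiphoid cartilage. They took 0.743% and 0.804% of counts in articular against 2.41% and 2.31% in xiphoid libraries, with none at 0. Gsn (gelsolin) carried most of that gap, and without it the shares were 0.708% and 0.770% in articular against 1.01% and 1.04% in xiphoid libraries. Their part in the ligand values was not tested.

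Among 11 tested collagens listed as integrin ligands, 4 passed toward articular and 3 toward xiphoid cartilage. Their called share was 63.6% against 49.5% of all genes tested. Besides Col2a1, the articular side held Col9a1 and Col11a1, which build the cartilage fibril with type II collagen, at 3.63-fold (adjusted p = 2.09e-06) and 3.10-fold (adjusted p = 3.51e-06). Col3a1, a fibrillar collagen of soft connective tissue, was at 580.1 and 566 CPM in articular and 2835 and 2731 CPM in xiphoid libraries (adjusted p = 1.72e-07).

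The cytoplasmic machinery that switches integrins on and ties them to actin was called about as often as genes at large, with 17 of 34 tested genes, 9 higher in articular and 8 higher in xiphoid cartilage, against 49.5% of all genes tested. Fermt2 (kindlin-2), which activates integrins by binding the beta tail, was at 377 and 440.3 CPM in articular and 181 and 198 CPM in xiphoid libraries, 2.16-fold higher in articular cartilage (adjusted p = 7.1e-05). Rap1a, a small GTPase upstream of integrin activation, and Lims1, an adaptor of integrin-linked kinase, were 2.29-fold and 2.60-fold higher in articular cartilage (adjusted p = 7.17e-05 and 8.2e-05). Tns1, a tensin that links integrins to actin in mature adhesions, stood on the other side, at 52.4 and 41.7 CPM in articular against 273 and 259 CPM in xiphoid libraries (adjusted p = 1.44e-07). Fermt3, the kindlin of blood cells, was at 14.8 ± 4.25 CPM in articular against 4.98 ± 1.61 CPM in xiphoid cartilage (SD, n = 2 each, adjusted p = 0.00135). Itgb1bp2, which encodes melusin, a muscle protein that binds the Itgb1 tail, had no count in articular and 38 and 17 counts in xiphoid libraries, and so was at least 18.3-fold higher in xiphoid cartilage. The core kinases Ilk (log2 fold change -0.18, adjusted p = 0.329) and Ptk2 (0.20, adjusted p = 0.329) did not pass. The list's median was 0.09, also with Itgb1bp2 at its bound.

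Partners of dystroglycan in the dystrophin complex, which links laminin to the cytoskeleton, had 2 of 14 tested genes higher in articular and 5 higher in xiphoid cartilage, with a median of -0.66. Their called share of 50% is close to the 49.5% of all genes tested. Sgca, the muscle sarcoglycan, was at 0.598 and 0.899 CPM in articular against 10.0 and 13.7 CPM in xiphoid libraries (adjusted p = 7.34e-06). Cav3, also a muscle protein, was higher in xiphoid cartilage by 14.4-fold (adjusted p = 1.67e-05), and its log2 fold change, -3.85, was -4.76 without articular replicate 1. Sntb2, a syntrophin adaptor found in many tissues, was at 77.0 and 79.2 CPM in articular and 25.2 and 23.7 CPM in xiphoid libraries (adjusted p = 3.95e-06). Dmd (dystrophin) and its widespread relative Utrn did not pass, with log2 fold changes of 0.75 (SE 0.49, adjusted p = 0.228) and 0.12 (SE 0.15, adjusted p = 0.552). The skeletal muscle marker shares given for Itga7 apply to these values as well.

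Enzymes that build the laminin-binding sugar of dystroglycan had 1 of 16 tested genes higher in articular and 5 higher in xiphoid cartilage, with a median of -0.35. Their called share of 37.5% is below the 49.5% of all genes tested. B4gat1, which primes that sugar chain, was at 35.1 and 29.8 CPM in articular against 13.5 and 16.2 CPM in xiphoid libraries (adjusted p = 0.000571). Large2, one of the polymerases that extend it, was at 2.51 and 3.72 CPM in articular against 6.82 and 9.32 CPM in xiphoid libraries (adjusted p = 0.00625). Dolk, which makes the lipid carrier for mannose, was higher in xiphoid cartilage by 2.07-fold (adjusted p = 0.000717), and Pomgnt1, which extends O-mannose, 1.52-fold (adjusted p = 0.00559, and 0.0512 without xiphoid replicate 1).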

How the data were processed

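RNA was measured in 2 articular and 2 xiphoid cartilage libraries. The authors deposited expected counts (estimated reads per gene, not normalized), per the file headers and values, of which 3.91% were not whole. The submitters' processing notes name RSEM 1.2.12, Bowtie2 2.2.6, StringTie 1.2.1, HISAT2 2.0.4 and build rn6 without a role. Strand use in counting was not given in the sources used here. For 9 of the 31 genes the count includes transcripts assembled by the authors' pipeline.

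Counts were rounded, filtered with filterByExpr by tissue (11202 genes tested), scaled by TMM and tested across all genes by quasi-likelihood in edgeR 4.0.16 (R 4.3.3; glmQLFit robust, then glmQLFTest), fitting tissue alone, with Benjamini-Hochberg adjustment. Tests are 2-sided, SE is the log2 fold change divided by the square root of F, and the fit had 2 residual degrees of freedom. The biological coefficient of variation was 14.1%. Alternatives were DESeq2 1.42.0, limma-voom (limma 3.58.1), RLE, upper-quartile or no scaling factors, keeping all genes or those of 5 CPM or more on average, a replicate block, dropping the listed markers of other cells, and dropping each library. All 31 identifiers matched RefSeq.

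The genes and the lists (8 of pathway partners, with 123 of 148 entries matched, and 18 of cell type markers) were chosen with earlier results of these data known. Some genes are counted but not reported here, and every other gene of the rule is named. Those called and reaching 10 CPM in the higher tissue, and their known partners, are given in full. Up to 4 called genes per pathway list with the lowest adjusted p are named. Fn1, Vtn, Cdh1, Icam1, Icam2, Vcam1, Bcam, Hmcn1, Itgb1bp2, Ilk, Ptk2, Utrn, Dmd, Col18a1, Col7a1, Ddr2, Cd44 and Fermt3 were named after their values were seen.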

Additional observations from a re-analysis of the deposited data

How the results depend on the processing

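The counts of genes higher in articular (10) and in xiphoid cartilage (10) ranged from 7 to 11 and from 9 to 10 over the 13 alternatives, and from 7 to 11 and from 9 to 10 when 1 library was left out. Over these alternatives, 328 of 346 values of the 27 tested genes kept their direction and side of the threshold, and 16 of the 20 called genes did so in every one that could test them. The exceptions among called genes were Agrn, Itga1, Itgam and Itgb7. Lamc3 turned from -0.07 to 0.17 without articular replicate 1 (range -0.34 to 0.17 over the left-out libraries), and Ddr2 from 0.19 to -0.0015 without xiphoid replicate 2 (range -0.0015 to 0.44), neither of them called. The cause was not tested. With a mean CPM of at least 5, Itga4, Itga8, Itgam, Itgb7 and Lamc3 were not tested. The same-numbered libraries of the tissues are tied by nothing but their number in the labels, although their deviations from the tissue means correlated at 0.24. With the replicate block, 11 and 10 of the genes were called, and the genes called among all tested were 6828 in place of 5544. Itgb1 (0.35, adjusted p = 0.000689), Lamb2 (0.25, adjusted p = 0.026) and Col18a1 (-0.37, adjusted p = 0.0245) were then called, and Itgb7 was not (1.55, adjusted p = 0.0629). Depth limits Itgad, Itgb6, Itgb8 and Lama1, and the size of change of Itga8, Itgb3 and Itga4, which rests on 9 counts or fewer in one tissue.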

Other observations

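Some genes that act beside integrins were looked at after the values above were seen. Cd151, a tetraspanin that binds laminin-binding integrins directly, was at 74.5 and 70.8 CPM in articular and 115 and 124 CPM in xiphoid libraries (log2 fold change -0.72, SE 0.15, adjusted p = 0.00165). It stood on the side of Itgb4 and Itga7, opposite to Itga6. The tetraspanin Cd81 was at 251 and 273 CPM in articular and 499.5 and 588 CPM in xiphoid libraries (adjusted p = 0.000113), and Cd9, a tetraspanin found in many cells, overlapped between tissues (log2 fold change 0.15, adjusted p = 0.455). Plec, which encodes plectin, the linker from Itgb4 to keratin filaments, was at 86.4 and 77.1 CPM in articular and 115 and 120 CPM in xiphoid libraries (adjusted p = 0.0114), and its call was lost without xiphoid replicate 1 (0.0747) or xiphoid replicate 2 (0.117). Lad1, a protein of the epidermal basement membrane, had 7 and 7 counts in articular and 4 and 0 counts in xiphoid libraries and was untested.

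Itgbl1, a secreted relative of integrin beta subunits known from cartilage, was at 76.3 and 80.4 CPM in articular against 117 and 118 CPM in xiphoid libraries (adjusted p = 0.00569, and 0.054 and 0.0625 without xiphoid replicates 1 and 2). Among membrane proteases that act with integrins, Adam15, whose disintegrin domain binds them, was at 61.8 and 54.7 CPM in articular and 142 and 157 CPM in xiphoid libraries (adjusted p = 1.72e-05). Mmp14, the membrane collagenase, was 1.76-fold higher in articular cartilage (adjusted p = 0.00195).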
